A study of Mus musculus with 12 samples.

Results

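Transcripts of the cytosolic ribosomal proteins were followed in the forestomach of mice, a stratified squamous pouch at the entrance of the stomach. The members are all genes whose name on the array is Rps or Rpl followed by a number, together with Rplp0, Rplp1, Rplp2 and Rpsa; kinase genes of the Rps6k family and pseudogene names were left out. This gave 83 of the 28146 genes on the array, 33 of the small and 50 of the large ribosomal subunit, on 137 of 41174 array probes. The brightest probe stood for each gene. All 83 passed the filter on dim probes, as did 20680 genes in all, and 82 were well above background in Cy5 on all 8 arrays with scanner files.

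The 12 samples came from whole forestomach in 3 groups of 4, all from adult C57BL/6J mice described as wild type. Control mice received supersaccharin with 0% alcohol, the second group received 20% alcohol in supersaccharin for 4 weeks, and the third received 15% alcohol for 40 weeks, for which the labels do not mention saccharin. Dose and duration therefore differ together between the alcohol groups, and the age of the controls at dissection is given only as adult. Forestomach RNA was labelled with Cy5 and a commercial pool, the Universal Mouse Reference RNA, with Cy3 on every array. Every value is thus a log2 ratio of forestomach to the pool, unless 1 channel is named. The labels do not say that replicates were separate animals, so p-values rest on a spread among samples that could be partly technical.

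A ribosome joins a small subunit, which reads the messenger RNA, to a large subunit, which forms the peptide bonds. Each ribosomal protein is needed in a fixed proportion to the ribosomal RNAs, and the genes are scattered over the chromosomes and expressed together in growing cells. Their transcripts begin with a run of pyrimidines, the terminal oligopyrimidine tract, through which their translation responds to mTOR signalling. In a squamous epithelium ribosome production is greatest in the basal, dividing layers.

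Some members have such a run at their annotated start, and 5 of these are printed to show what it looks like; they were picked from the members with the run, whatever their change. RefSeq promoter windows (build GRCm38.p6) were found for 62 of the 83 members. Each line gives 45 bases before the annotated start and 15 from it on, 5′ to 3′ on the gene's strand, with the unbroken run of C and T that holds the start base in capitals.
Rps18, chr17:33955651-33955710, minus strand: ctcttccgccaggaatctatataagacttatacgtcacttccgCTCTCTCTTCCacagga
Rpl34, chr3:130730323-130730382, minus strand: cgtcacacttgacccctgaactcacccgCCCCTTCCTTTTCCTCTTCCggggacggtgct
Rpl35a, chr16:33056437-33056496, plus strand: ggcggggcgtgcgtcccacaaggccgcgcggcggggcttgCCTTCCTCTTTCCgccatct
Rplp2, chr7:141447606-141447665, plus strand: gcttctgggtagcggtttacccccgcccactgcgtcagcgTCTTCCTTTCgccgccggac
Rps6, chr4:86857353-86857412, minus strand: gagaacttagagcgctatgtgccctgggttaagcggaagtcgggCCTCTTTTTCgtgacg
A start base inside a run of at least 6 pyrimidines was found in 19 of the 62 members (30.6%) and in 2293 of 27025 genes with a window (8.5%). Other letters were searched in the full promoter window, which is longer than the printed bases. CCGGAAG, on both strands, stood in 26 of the 62 members (41.9%) and in 2683 of the 27025 genes (9.9%). TATAAA, on the gene's strand of the full window, stood in 9.7% of members and 9.8% of genes. Between 40 and 16 bases before the annotated start, TATAAA stood in 1.6% of members and 2.4% of genes. The median change at 40 weeks, described later, was -0.34 over the 19 members with such a run and -0.28 over the other 43, a description with no test.

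Several properties of the arrays bear on what follows. The 4 control arrays lay on 1 slide and the 4-week arrays on another, so slide and group cannot be told apart, and the slides of the 40-week arrays were not used here. Squamous markers were far above the pool in every sample: the median log2 ratio of the 8 markers ran from 5.13 to 5.62 in controls, from 3.33 to 4.46 at 4 weeks and from 2.85 to 3.22 at 40 weeks. Smooth muscle markers ran from 5.28 to 5.76, from 4.04 to 4.86 and from 2.75 to 3.15. Markers of other organs were high on single arrays: pancreatic acinar markers reached 6.17 in control 3, and glandular stomach markers 5.39 in control 4 and 4.06 in 4-week sample 2. Adipocyte markers were lower in control 1 (2.83, the other controls 6.09 to 6.69) and 4-week sample 3 (0.82, the others 4.84 to 5.10), and 2.29 to 3.34 at 40 weeks. Macrophage markers ran from 4.10 to 4.78 in controls, from 3.30 to 3.87 at 4 weeks and from 1.86 to 2.54 at 40 weeks, and red blood cell markers from 4.17 to 5.47, from 3.49 to 4.27 and from 1.87 to 2.39. The 40-week samples 3 and 4 had Y-linked Eif2s3y at -5.67 and -6.28, against 2.61 to 3.17 in the other 10 samples. Xist, which is X-linked, stood at 0.63 and 0.11 in these 2 samples, against -2.25 to -0.82 in the other 10. Over all genes tested, the deposited ratios spread less at 40 weeks (SD 1.16 to 1.24) than in the controls and the 4-week samples (1.65 to 1.92). The part of these differences in the member results was not tested beyond the values given beside them. In whole tissue, fewer cells of a type and less RNA per cell cannot be told apart.

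In controls, most ribosomal protein transcripts were near the level of the pool. The mean deposited log2 ratio lay between -1 and 1 in 74 of the 83 members. Rps4y2 stood highest at 6.25 ± 0.28 (SD, n = 4), followed by Rps14, a small subunit protein next to the messenger RNA path, at 1.48 ± 0.11 and Rplp1, an acidic stalk protein, at 1.24 ± 0.36. Lowest were Rpl39l, a testis-enriched copy of Rpl39, at -6.55 ± 0.31, Rpl14 at -1.22 ± 0.14 and Rpl30 at -0.67 ± 0.12. Apart from Rps4y2 and Rpl39l the members thus formed a narrow band, of SD 0.48 to 0.59 within a control array.

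This band was lower in both alcohol groups. The median over the 83 members was 0.39, 0.34, 0.29 and 0.16 on the control arrays, 0.07, -0.11, -0.02 and -0.10 at 4 weeks, and 0.13, -0.02, -0.02 and -0.02 at 40 weeks. All 8 alcohol samples lay below the lowest control. Over all genes tested the same medians ran from 0.13 to 0.19, from 0.10 to 0.14 and from 0.09 to 0.12. Small subunit medians were 0.21 to 0.59 in controls, -0.26 to 0.07 at 4 weeks and -0.10 to 0.12 at 40 weeks. Large subunit medians were 0.12 to 0.32, -0.12 to 0.03 and -0.03 to 0.15.

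**Figure D1:**
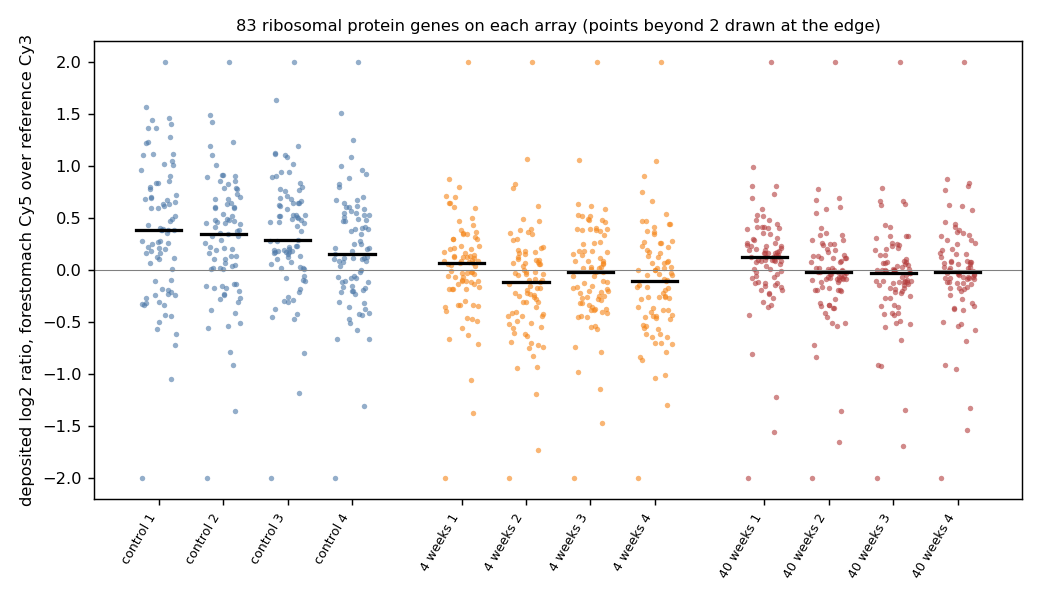
Deposited log2 ratio of forestomach Cy5 over reference Cy3 (vertical axis) for the 83 members on each of the 12 arrays (horizontal axis); points are genes, black bars the median of an array, and points beyond 2 on either side are drawn at 2. The medians of the 4 control arrays, 0.16 to 0.39, lie above those of the 8 alcohol arrays, -0.11 to 0.13.

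After 4 weeks of 20% alcohol, 70 of the 83 members had a lower mean ratio than controls, among them all 33 of the small subunit. The median change on the scanner ratios was -0.24, against -0.02 over all 20680 genes, of which 10981 were lower. Single genes rarely passed the test: 3 members fell, where the background was 0.812% of all genes, and 0 rose, where it was 0.266%, at an adjusted p under 0.05 (limma, Benjamini-Hochberg over all genes). At an unadjusted p under 0.05, 35 members were lower and 3 higher, 42.2% and 3.61% of the members against 9.63% and 8.32% of all genes. The control and 4-week arrays did not overlap for 25 members with lower values at 4 weeks, 30.1% of the members against 6.33% of all genes. Leaving out any 1 array left 0 members called, and the median then ran from -0.32 to -0.23. These fits called only 0 to 52 of all 20680 genes, against 223 with no array left out.

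The 3 that fell were Rps12, Rpl37a and Rps4y2. Rps12, a small subunit protein, had scanner ratios of 1.19, 1.07, 0.89 and 0.98 in controls and 0.28, 0.08, 0.29 and 0.45 at 4 weeks. Its change was -0.76 ± 0.12 (SE, adjusted p 0.0349, limma), and the groups did not overlap. Rpl37a, a small zinc-binding protein of the large subunit, had 1.42, 1.19, 1.17 and 0.93 in controls and 0.59, 0.20, 0.48 and -0.02 at 4 weeks, a change of -0.87 ± 0.16 (adjusted p 0.0488, limma). Rps4y2 had 5.82, 5.89, 6.34 and 5.70 in controls and 4.93, 4.47, 5.03 and 4.56 at 4 weeks, a change of -1.19 ± 0.18 (adjusted p 0.0349, limma).

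Other members with large differences did not pass. Rps23, at the decoding centre, had a change of -0.78 ± 0.19 (adjusted p 0.0841, limma), with controls from 0.56 to 1.37 and 4-week samples from -0.21 to 0.27. Rps13 had -0.73 ± 0.18 and Rps20 -0.68 ± 0.18, both without overlap between the groups. On the other side stood Rpl10, which joins the large subunit late in its maturation, at 0.41 ± 0.11 (adjusted p 0.109), with controls from -0.53 to -0.23 and 4-week samples from -0.03 to 0.17. Rpl6 had 0.36 ± 0.12 and Rpl10a 0.31 ± 0.10, and neither passed.

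The 2 channels were then taken apart, since Cy3 carried the same pool on every array and gives a background measure. In Cy5 alone, which carries the forestomach RNA, the median member change at 4 weeks was -0.19, against -0.00 over all genes, and 62 of 83 members were lower. By limma 0 members were called lower in Cy5, where the background was 0.0532%, and 20 were lower and 5 higher at an unadjusted p under 0.05. These are 24.1% and 6.02% of the members, against 7.17% and 9.18% of all genes. In Cy3 alone the median member change was 0.07, against -0.03 over all genes. At an unadjusted p under 0.05 (limma), 30.1% of the members were higher and 6.02% lower in Cy3, against 13.6% and 13.8% of all genes. At an adjusted p under 0.05, 14 members rose in Cy3, by 0.25 to 1.04, 16.9% of the members against a background of 6.04%. All 14 had a lower ratio at 4 weeks, and 10 of them also had a lower Cy5 value. Cy3 is the denominator of the ratio, so a higher Cy3 value by itself lowers the ratio.

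The channels of the 3 members called in the ratio show how it was made up. For Rps4y2 the Cy5 values were 13.43, 13.09, 13.13 and 13.08 in controls and 13.25, 13.33, 12.83 and 13.29 at 4 weeks, on a log2 scale of normalized intensity. The groups overlapped, with a change of -0.01 ± 0.15. Its Cy3 values were 8.69, 8.48, 8.29 and 8.64 in controls and 9.46, 10.04, 8.95 and 9.81 at 4 weeks, a change of 1.04 ± 0.21 (adjusted p 0.0199, limma). The groups did not overlap in the channel of the pool, and did in the forestomach channel. For Rps12 the change was -0.35 ± 0.10 in Cy5 (adjusted p 0.149) and 0.45 ± 0.05 in Cy3 (adjusted p 0.00222). For Rpl37a it was -0.50 ± 0.15 in Cy5 (adjusted p 0.159) and 0.47 ± 0.07 in Cy3 (adjusted p 0.00509). Rps18 had -0.01 ± 0.13 in Cy5 and 0.59 ± 0.13 in Cy3 (adjusted p 0.0234).

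Rpsa, the laminin receptor precursor that is also a small subunit protein, differed from these. Its change was -0.81 ± 0.19 in Cy5 (adjusted p 0.0943) and -0.14 ± 0.08 in Cy3, the larger difference being in the forestomach channel. Rps13 likewise had -0.73 ± 0.20 in Cy5 and -0.02 ± 0.09 in Cy3. Rpl39 had the highest Cy5 difference, 0.60 ± 0.22 (adjusted p 0.225). When the 3 arrays with markers of other organs were left out, 1 member was called in Cy3 and 0 in the ratio. Over all genes 305 were then called in Cy3 and 0 in the ratio.

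**Figure D2:**
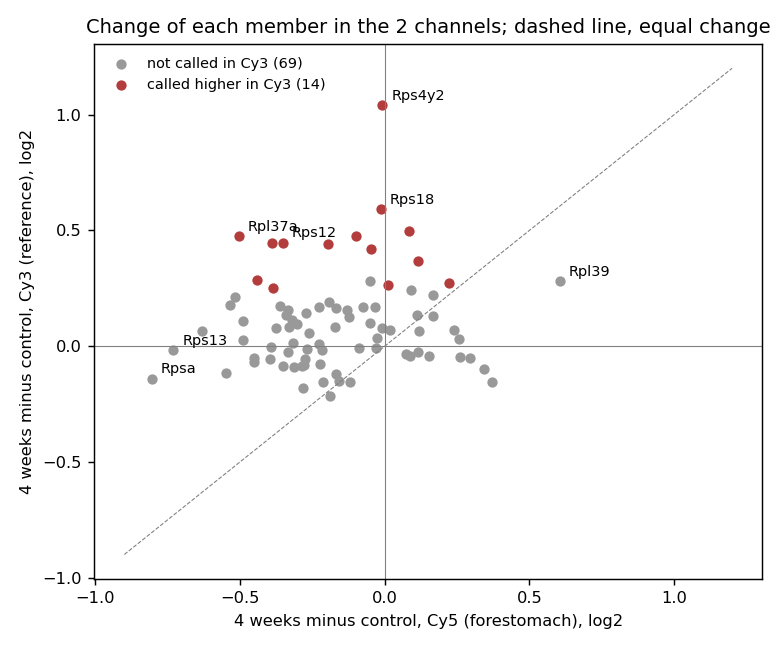
Change from control to 4 weeks, in log2 units, in Cy5 (horizontal axis, forestomach) and in Cy3 (vertical axis, the pool) for the 83 members; each point is a gene, red marks the 14 called higher in Cy3, and the dashed line marks equal change. Rps4y2 lies near 0 in Cy5 and at 1.04 in Cy3, and Rpsa at -0.81 in Cy5.

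The size of the 4-week change depended on how intensity was treated. Without loess, which removes a trend of the ratio with spot brightness, the member median was -0.83 and that of all genes -0.12. The member medians of the arrays were then 0.92, 0.33, 0.80 and -0.05 in controls and -0.23, 0.03, -0.27 and -0.77 at 4 weeks. Member spots are among the brightest: their median Cy5 signal above background ran from 63562 to 281024, where that of all probes was 40.1 to 142.

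After 40 weeks of 15% alcohol, 40 members fell and 2 rose against controls in the deposited ratios, where the background was 24.0% of all genes lower and 18.6% higher. This was 48.2% of the members lower and 2.41% higher. The median member change was -0.33, against -0.09 over all genes. The groups did not overlap for 36 members with lower values at 40 weeks, 43.4% of them against a background of 23.9%. Of the 33 small subunit members 20 fell, with a median of -0.46, and of the 50 large subunit members 20 fell, with a median of -0.21; the difference between the subunits was not tested. Without the 40-week samples 3 and 4, which differed in Y-linked genes, 18 members fell and 1 rose, and the median was -0.28. With all arrays scaled to 1 spread, 30 fell and 1 rose. Over all genes the calls in either direction were 8813 in the main fit, 5058 without these 2 samples and 7813 with 1 spread. Of the 14 members called higher in Cy3 at 4 weeks, against the same controls, 12 were called lower at 40 weeks in the deposited ratios. The control Cy3 values enter both calls, so this overlap is partly built in and is only a description. It was not counted over all 1249 genes called higher in Cy3. The 40-week arrays were seen only as ratios, so the part of the pool channel in the falls at 40 weeks was not tested.

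Within the members, the change differed with the starting level. Of the 61 members with a control ratio above 0, 37 fell and 0 rose (limma; 39 lower and 0 higher at an unadjusted p under 0.05), with a median of -0.43. Of the 22 below 0, 3 fell and 2 rose, with a median of 0.02. The control values enter both the split and the change, so these counts are a description. The same split was not counted over all genes, so it is not known to be particular to the members. Deposited ratios of all genes also spread less at 40 weeks (SD 1.16 to 1.24) than in controls (1.69 to 1.92). The spread of the 81 members without Rps4y2 and Rpl39l was 0.48 to 0.59 (SD) on control arrays, 0.39 to 0.46 at 4 weeks and 0.38 to 0.42 at 40 weeks, and its part in the change was not tested.

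On the small subunit, Rpsa had the largest fall apart from Rps4y2. It stood at -0.19, -0.91, -0.42 and -0.43 in controls, at -1.05, -1.19, -1.14 and -1.01 at 4 weeks, and at -1.56, -1.66, -1.69 and -1.54 at 40 weeks. The 3 groups did not overlap. The change from control to 40 weeks was -1.12 ± 0.14 (SE, adjusted p 9.53e-05, limma), and it was called under all 20 alternatives, between -1.76 and -0.985. Its second, dimmer probe fell too, by 0.98 ± 0.14. Rps12 stood at 1.23, 1.10, 0.91 and 1.00 in controls and at 0.29, -0.01, -0.00 and 0.29 at 40 weeks, a fall of -0.92 ± 0.12 (adjusted p 0.000148). Its 40-week values overlapped those at 4 weeks, -0.02 to 0.27.

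Other small subunit members called lower had smaller changes. Rps23 had -0.79 ± 0.17 (adjusted p 0.00338), Rps20 -0.77 ± 0.16 and Rps7 -0.71. Rps19, a protein needed to mature the small subunit RNA and mutated in Diamond-Blackfan anaemia, ran from 0.12 to 0.59 in controls, from -0.04 to 0.29 at 4 weeks and from -0.54 to -0.05 at 40 weeks, with a change of -0.71 ± 0.14. Rps3, at the entry of the messenger RNA channel, ran from 0.86 to 1.37 in controls and from 0.33 to 0.42 at 40 weeks, a change of -0.68 ± 0.13. Rps14 fell by 0.62 ± 0.12, from 1.48 to 0.86, and this was -0.17 and not called with 1 spread. Rps27a, made as a fusion with ubiquitin, had -0.38 ± 0.14 (adjusted p 0.0452), and was called under 8 of 20 alternatives. Rps2 had -0.27 ± 0.18 (adjusted p 0.254).

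Rps6, the small subunit protein phosphorylated by S6 kinase, went against the others. Its ratios were -0.21, -0.42, -0.21 and -0.32 in controls, -0.33, -0.72, -0.40 and -0.64 at 4 weeks, and 0.15, -0.06, -0.10 and -0.01 at 40 weeks. The 40-week values lay above all others, with 0.28 ± 0.12 against control (adjusted p 0.0780) and 0.52 ± 0.12 against 4 weeks (adjusted p 0.00514, limma).

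On the large subunit, Rpl41, the smallest protein of the ribosome, had -0.76 ± 0.17 (adjusted p 0.00421), Rpl31 -0.72 ± 0.14 and Rpl34 -0.71 ± 0.12 (adjusted p 0.000867). The second, dimmer Rpl31 probe, also RefSeq-named, changed by only -0.11 ± 0.19 (adjusted p 0.656, limma over single probes). The second Rpl34 probe changed by -0.81 ± 0.13. Rpl34 ran from 0.48 to 0.71 in controls, from -0.26 to 0.13 at 4 weeks and from -0.27 to -0.01 at 40 weeks, without overlap with controls. Both proteins that bind 5S RNA and restrain Mdm2 fell: Rpl5 by 0.57 ± 0.14, from 0.78 ± 0.18 to 0.22 ± 0.22 (SD, n = 4), and Rpl11 by 0.49 ± 0.13, from 1.09 ± 0.18 to 0.59 ± 0.11. Rpl11 did so by its brightest probe, and with 1 spread the change was -0.17 and not called. Rpl4 had -0.37 (adjusted p 0.120), Rpl13a -0.13, Rpl38 -0.19 and Rpl3, beside the peptidyl transferase centre, 0.11 ± 0.18, none of them called. The 2 members called higher were Rpl39l and Rpl6. Rpl6 ran from -0.44 to -0.14 in controls and from -0.01 to 0.18 at 40 weeks, a rise of 0.36 ± 0.11 (adjusted p 0.0228). Rpl23 had 0.33 ± 0.18 (adjusted p 0.175) and Rpl10a 0.14.

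The stalk, which recruits the elongation factors, consists of Rplp0 at its base and the acidic Rplp1 and Rplp2. Rplp1 stood at 1.56, 1.49, 1.12 and 0.80 in controls, at 0.88, 0.79, 0.64 and 0.75 at 4 weeks and at 0.81, 0.67, 0.63 and 0.77 at 40 weeks. The fall to 40 weeks was -0.52 ± 0.16 (adjusted p 0.0202), -0.15 and not called with 1 spread, with control 4 inside the range of the 40-week samples. Rplp0 ran from 0.20 to 0.42 in controls and from -0.09 to 0.10 at 40 weeks, a fall of -0.28 ± 0.10 (adjusted p 0.0448), called under 2 of 20 alternatives. Rplp2 had -0.02 ± 0.12 (adjusted p 0.889).

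**Figure D3:**
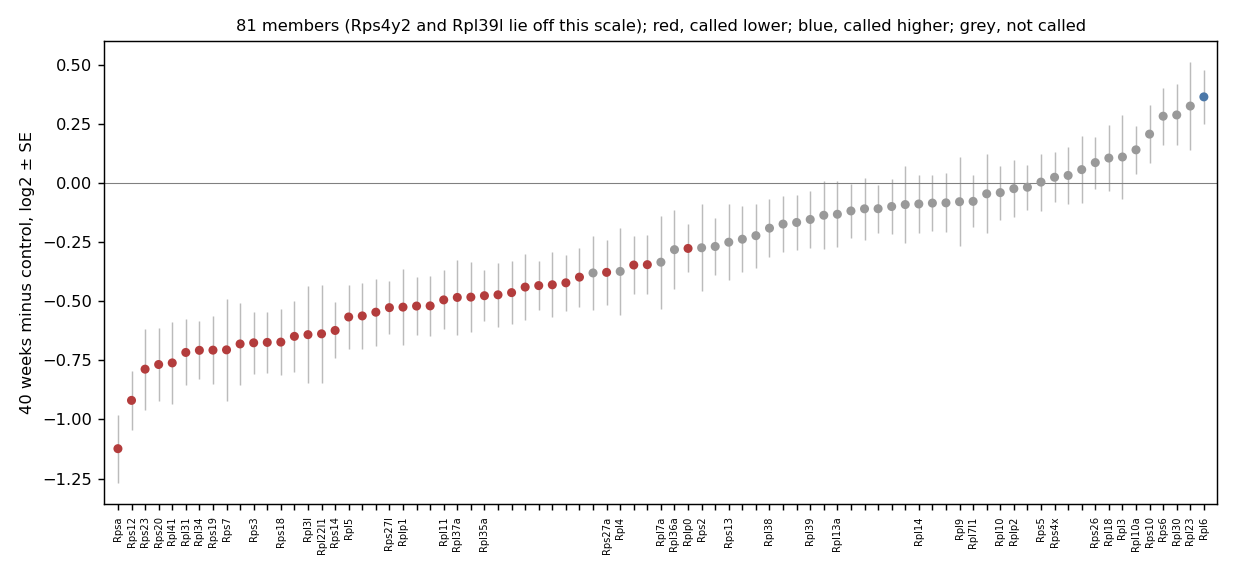
Change from control to 40 weeks in the deposited log2 ratio (vertical axis, with the SE as bars) for 81 members in order of size (horizontal axis, with the members chosen for naming labelled); red points were called lower, the blue point higher and grey points not called. The values run from -1.12 for Rpsa to 0.36 for Rpl6; Rps4y2 (-2.90, called lower) and Rpl39l (1.56, called higher) are left off.

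Between the alcohol groups members were called in both directions. Against 4 weeks, 12 members were higher at 40 weeks and 6 lower, 14.5% and 7.23% of the members, where the background was 18.3% and 23.2%. The median change was 0.05, against -0.08 over all genes. Higher were, among others, Rpl39l, Rps13 (0.61 ± 0.16), Rpl7a (0.56), Rpl37a (0.53 ± 0.16), Rps6 and Rpl38 (0.46 ± 0.12). Rps13 stood between -0.93 and -0.47 at 4 weeks and between -0.20 and -0.08 at 40 weeks. Lower were Rps4y2 (-1.60 ± 0.19), Rpl3l (-0.57 ± 0.20), Rpsa (-0.51 ± 0.14, adjusted p 0.0140), Rps19 (-0.42 ± 0.14), Rpl31 (-0.40 ± 0.14) and Rpl10 (-0.32 ± 0.11). With all arrays scaled to 1 spread the Rps4y2 difference was -0.12 (adjusted p 0.608), and after quantile normalization -0.24. The Rpl3l difference with 1 spread was -0.44 (adjusted p 0.0888), and it was called under 7 of 20 alternatives. Rpl10 was also called under 7 of 20, Rpl31 and Rpl7a under 10, and Rps19 under 12. The chosen Rpl10 probe has a clone accession and no position in the files. The other probes of Rpl10 and Rpl31, both RefSeq-named, went from -0.20 to -0.14 and from 0.00 to 0.15. Without the 40-week samples 3 and 4, 2 members were called higher and 1 lower. Over all genes 4693 were then called in either direction, against 8595 with all samples. In the same fit of 12 samples, which shares its controls between the alcohol groups, 25 members were called lower at 4 weeks, where the background was 3.67%.

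Rps4y2 stood apart in level and in change. It is the array's name; the RefSeq table lists the gene as Rps4l, a transcribed pseudogene on chromosome 6. Its probe lies at chr6:148304018-148304077 on build mm9, plus strand, and the sequence is printed because no other member had a comparable ratio.
Rps4y2 probe: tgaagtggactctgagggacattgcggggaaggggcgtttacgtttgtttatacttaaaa
Deposited ratios were 6.22, 6.18, 6.64 and 5.96 in controls, 5.11, 4.58, 5.32 and 4.80 at 4 weeks, and 3.08, 3.61, 3.31 and 3.40 at 40 weeks. The groups did not overlap. The change from control to 40 weeks was -2.90 ± 0.19 (adjusted p 1.42e-06, limma), and -1.07 once all arrays had 1 spread, also called. The step from 4 to 40 weeks depends on the scale of the 40-week columns, since it was -1.60 as deposited and -0.12 with 1 spread. Its functional X-linked relative Rps4x had means of 0.31 ± 0.11, 0.03 ± 0.13 and 0.33 ± 0.04.

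Of the other X-linked members none was called at 40 weeks against control: Rpl10 had -0.04 ± 0.11, Rpl36a -0.28 ± 0.17 and Rpl39 -0.15 ± 0.12. The 2 further Rpl36a probes had -0.38 and -0.25, and the RefSeq-named Rpl10 probe 0.23. These values include the 40-week samples 3 and 4, which differed in Y-linked genes and in Xist. Among the 5 paralogs measured, Rps27l, a p53-induced copy of Rps27, ran from -0.38 to -0.30 in controls, from -0.98 to -0.56 at 4 weeks and from -0.93 to -0.81 at 40 weeks. Its fall at 40 weeks, -0.53 ± 0.11 (adjusted p 0.00297), was called under all 20 alternatives. Rpl22l1, the copy of Rpl22, had -0.64 ± 0.21 (adjusted p 0.0266), while its other probe rose by 1.33 ± 0.22. Rpl3l, the striated muscle form of Rpl3, had -0.64 ± 0.20 (adjusted p 0.0246), from a dim probe with 22 to 76 in Cy5 and 35 to 77 in Cy3 above background. With 1 spread neither was called (adjusted p 0.106 for Rpl22l1 and 0.0723 for Rpl3l), and they were called under 11 and 12 of 20 alternatives. Striated muscle markers had a median of -0.41 to 0.29 in controls and -0.02 to 1.15 at 40 weeks. Rpl7l1 had -0.08 ± 0.11.

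Rpl39l, the second gene off the common scale, had deposited ratios of -6.83 to -6.14 in controls, -7.33 to -6.57 at 4 weeks and -5.15 to -4.82 at 40 weeks. Its change to 40 weeks was 1.56 ± 0.19 (adjusted p 5.44e-05, limma), but -0.82 with all arrays scaled to 1 spread and -0.07 after quantile normalization of the 12 columns. Its direction thus depends on the scale of the 40-week columns. In Cy5 it was well above background on 3 of the 4 arrays at 4 weeks.

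**Figure D4:**
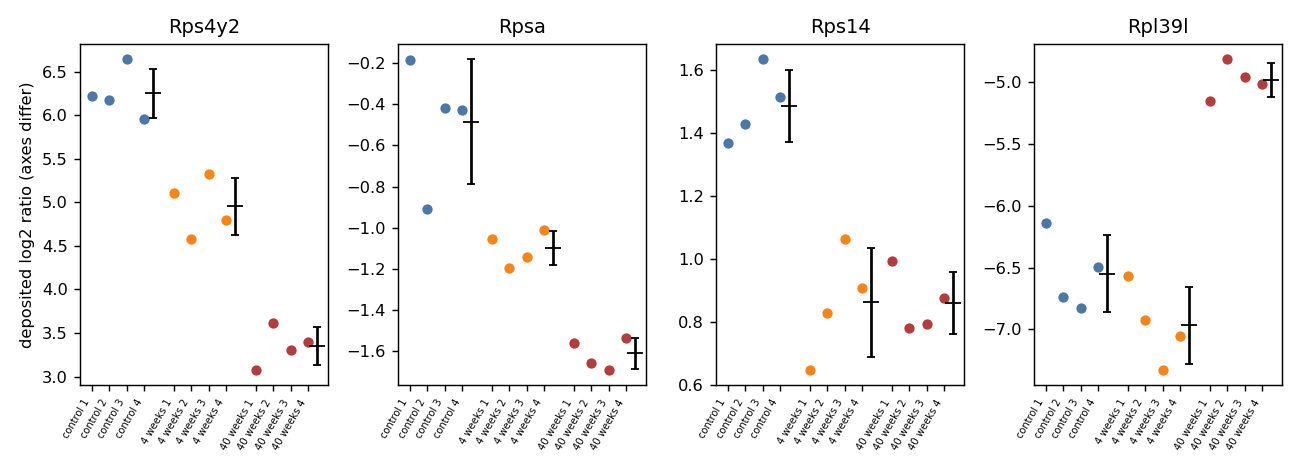
Deposited log2 ratio (vertical axes, which differ) of Rps4y2, Rpsa, Rps14 and Rpl39l on each of the 12 arrays (horizontal axes); coloured points are samples, and black marks the mean with the SD of the 4 samples of a group. As deposited, the Rps4y2 means are 6.25, 4.95 and 3.35, the second difference being -0.12 with 1 spread, and the Rpsa means -0.49, -1.10 and -1.61.

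Probes of 1 gene did not always agree. Of the 83 genes 41 had more than 1 probe. For Rpl11 and Rpl35a the files' coordinates place 1 probe wholly inside an intron that another probe of the gene spans; the pairs are shown, as probe sequences on build mm9.
Rpl11, spanning, chr4:135605885-135606207: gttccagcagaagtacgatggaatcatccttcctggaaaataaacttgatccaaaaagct
Rpl11, inside, chr4:135605957-135606016: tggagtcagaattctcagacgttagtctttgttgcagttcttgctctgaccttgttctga
Rpl35a, spanning, chr16:33057580-33058775: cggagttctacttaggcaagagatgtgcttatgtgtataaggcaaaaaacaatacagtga
Rpl35a, inside, chr16:33057674-33057733: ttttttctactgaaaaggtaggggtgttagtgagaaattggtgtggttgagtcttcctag
The spanning Rpl11 probe can match only the spliced transcript along its whole length. It stood at 1.22, 1.19, 1.11 and 0.83 in controls and 0.70, 0.55, 0.67 and 0.47 at 40 weeks. The Rpl11 probe inside the intron stood at -1.87, -1.57, -2.83 and -2.47 in controls, at -2.04, -3.09, -3.21 and -2.69 at 4 weeks, and at 0.39, 0.33, 0.38 and 0.60 at 40 weeks. It rose by 2.61 ± 0.29 (adjusted p 3.70e-05, limma over single probes) while the spanning probe fell by 0.49. For Rpl35a the spanning probe went from 0.62 ± 0.10 to 0.14 ± 0.13, and the probe inside, well above background on 1 of 8 arrays and so not tested, from -2.05 ± 0.45 to -0.67 ± 0.12.

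The same held for some, but not all, of the other probes that the array names by a clone accession in place of a RefSeq one. Of the 133 member probes tested singly, 13 rose and 52 fell at 40 weeks, where the background over 30455 probes was 18.1% higher and 24.2% lower. Of the 19 probes with another accession, 12 had a higher mean at 40 weeks. Among the 16 of them that were tested, 8 were called higher and 4 lower. Of the 19, 7 had a control ratio below -1, and all 7 were higher at 40 weeks by over 1. Among the 118 RefSeq-named probes, 4 lay below -1 and 2 of them were so much higher. Over all 5099 tested probes with a control ratio below -1, 34.8% were higher by over 1. The second Rpl13 probe went from -3.48 ± 0.88 to -0.11 ± 0.15, a rise of 3.37 ± 0.39, while the brightest Rpl13 probe changed by -0.08. The second Rps12 probe went from -3.84 ± 0.56 to -0.94 ± 0.17, a rise of 2.90 ± 0.25, where the brightest fell by 0.92. One of the further Rps24 probes rose by 2.81 ± 0.20, that of Rps13 by 2.71 ± 0.32 and that of Rps28 by 2.52 ± 0.35. With all arrays scaled to 1 spread these rises were 2.88 for Rpl13, 2.12 for Rps12, 2.45 for Rps24, 2.59 for Rps13, 1.96 for Rps28 and 2.46 for Rpl11.

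These probes were dim in the forestomach channel. The second Rps12 probe had Cy5 signals above background of 49 to 135 in controls, and Cy3 signals of 2201 to 2472. At 4 weeks its ratios ran from -3.70 to -2.92, overlapping the controls. How the background of the 40-week arrays was subtracted could not be seen, so whether that step moves ratios of dim probes was not tested. When all probes of a gene were averaged, Rps12, Rpl11, Rpl22l1 and Rps18 changed direction at 40 weeks, to 0.99, 1.06, 0.35 and 0.03.

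**Figure D5:**
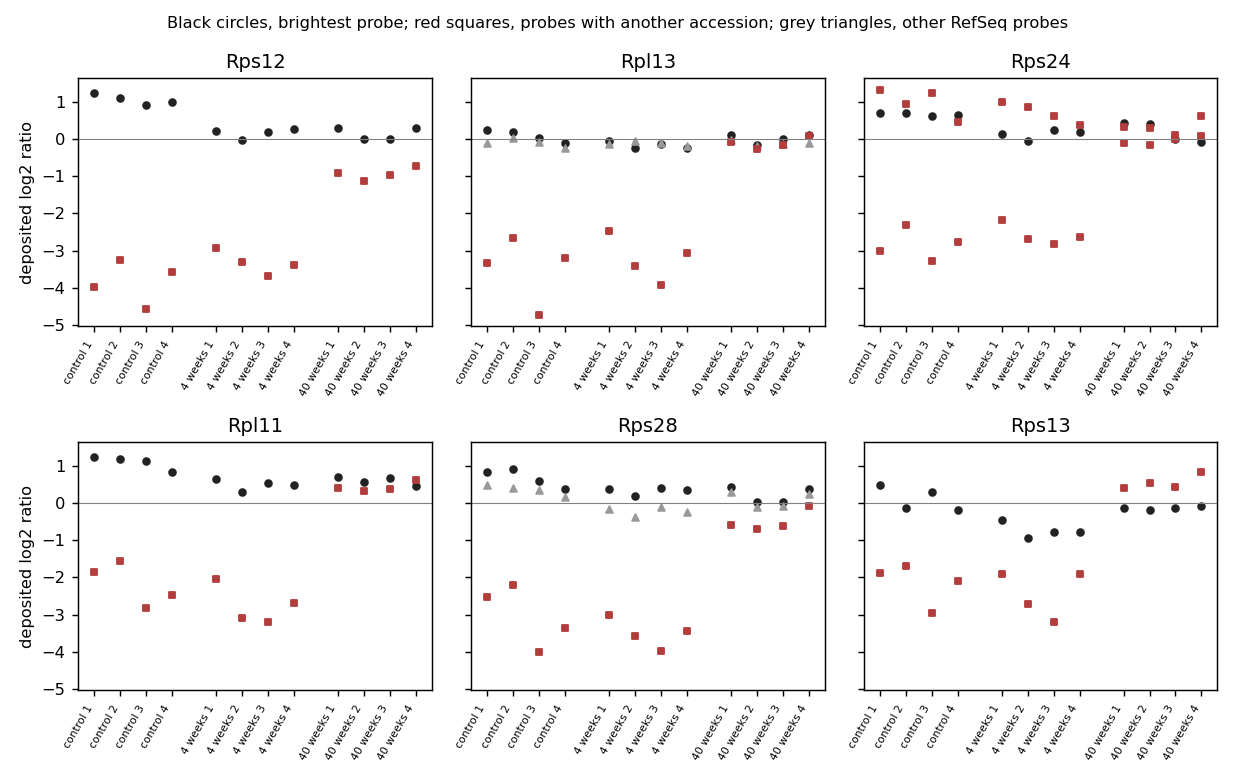
Deposited log2 ratio (vertical axis) of every probe of 6 members on the 12 arrays (horizontal axis); black circles are the brightest probe, red squares probes with another accession and grey triangles further RefSeq-named probes. For each gene 1 set of red squares lies between -4.74 and -1.57 in the control and 4-week samples and between -1.14 and 0.82 at 40 weeks; the upper red set of Rps24 follows the brightest probe.

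The files place the chosen probes of Rps27 and Rps29 on chromosomes 9 and 2, where RefSeq has these genes on 3 and 12, and 44 of the 83 chosen probes list more than 1 RefSeq transcript, so such probes may read more than 1 transcript.

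Other genes of protein synthesis were counted at 40 weeks on lists set by name, where 24.0% of all genes fell and 18.6% rose, with a median of -0.09. Of 75 mitochondrial ribosomal protein genes 16 fell (21.3%) and 4 rose (5.33%), with a median of -0.13. Of 26 genes of elongation and other transcripts with pyrimidine tracts 6 rose (23.1%) and 2 fell (7.69%), with a median of 0.10; Eif3d, a subunit of initiation factor 3, had 0.85 ± 0.13 and Eef1g 0.53 ± 0.13. Of 30 initiation factors and mTOR pathway genes 10 rose (33.3%) and 5 fell (16.7%), with a median of 0.20. Of 58 ribosome biogenesis genes 20 rose (34.5%) and 2 fell (3.45%), with a median of 0.22. Among these were the nucleolar proteins Ncl, at 1.32 ± 0.14, and Nop56, at 0.95 ± 0.17. At 4 weeks, limma called 0 genes of these 4 lists in the scanner ratio. At an unadjusted p under 0.05 there were 10, 1, 4 and 11 in the same order, which is 13.3%, 3.85%, 13.3% and 19.0% of each list against 17.9% of all genes, and the medians were -0.01, -0.01, 0.11 and 0.15. Differences between the lists were not tested. Of the 4 ribosomal proteins outside the naming rule 2 fell at 40 weeks, Gnb2l1 (-0.45 ± 0.13) and Rpl36al (-0.49 ± 0.11), and 0 rose by limma, also at an unadjusted p under 0.05; 3 of the 4 had a lower mean and 1 a higher one.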

How the data were processed

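Two-colour Agilent arrays were read for 12 samples. For the 8 control and 4-week arrays the deposited scanner output gave mean and background spot intensity per channel, together with processed signals and their log10 ratio, per the file headers. Other columns, flags of 0 or 1 marking saturation, outliers and signal clear of background, were used as deposited. Headers name Feature Extraction 10.7.3.1, the submitters' processing notes Agilent Feature Extraction 9.1. For all 12 arrays the authors' deposited value table gives a log2 ratio, Cy5 over Cy3; its scale was found by comparison with the scanner ratios of the 8 arrays (r of 0.974 to 0.983), but the making of the 40-week columns could not be traced. Their scanner files were not used here.

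Signals were corrected with normexp (offset 50) and loess in limma 3.58.1 under R 4.3.3. Single channels were quantile-normalized without loess. A probe was kept if well above background in Cy5 on at least 3 of 4 arrays of control or 4-week samples. Groups were read from the titles. Limma (lmFit, eBayes) compared control with 4 weeks on the 8 scanner arrays, and 40 weeks with both on the deposited table of 12, with Benjamini-Hochberg adjustment over 20680 genes. The procedure was tested on simulated data. No spot was saturated; precision is limited by how few arrays there are. The share of spots whose Cy5 signal cleared the background ran from 64.8% to 78.8%. Probe positions are those of the files on mm9.

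Members with a role of their own were named whatever their values, with every member called in a comparison (the 10 with the largest change in a direction with more), the 3 largest rises and falls, and the 3 highest and lowest control ratios. Further probes of Rpl13, Rps24 and Rps28 were chosen after their values were seen, as were genes named from other lists. Members and lists were chosen with earlier results of these data known. Alternatives covered background correction, normalization, the filter, probes, array weights, a replicate block and left-out arrays; the 12-sample fit at 4 weeks and the fit of single probes were added after seeing the data.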

Additional observations from a re-analysis of the deposited data

Results flagged for a closer look

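Among 147 groups of 4 samples, from 48 named members and the median over members, 9 held a sample that stood apart from the other 3; chance flags about 1 in 20 groups. On the scanner log2 ratio, control 1 had Rpl10 at -0.53, the others -0.27 to -0.23. Control 4 had Rpl9 at -0.18, the others 0.14 to 0.18, and control 2 had Rps10 at -0.82, the others -0.49 to -0.45. The first 4-week sample had Rpl31 at 0.12, the others -0.26 to -0.25, and Rps7 at 0.40, the others -0.15 to -0.08. On the deposited log2 ratio, 40-week sample 1 had Rpl9 at 0.17, the others -0.03 to -0.01, and Rps23 at 0.31, the others 0.06 to 0.09. The median over members was 0.13 in that sample and -0.02 in each of the others. The 40-week sample 3 had Rps27a at -0.25, the others -0.04 to -0.01.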

How the results depend on the processing

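The median over members kept its direction in all comparisons under every alternative run. At 4 weeks the count of 3 members called in the ratio became 6 without background correction and 12 with the scanner software's processed signals. It became 9 with array weights and 1 with probes averaged. With median centring, with 1 spread, or without the 3 arrays high in other organs' markers it was 0. Over all genes the 223 calls became 552, 669, 631 and 180 in the same order, and 0 under each of the last settings. The member count was 2 in the deposited table of the same 8 arrays and 25 in its 12-sample fit. Over all genes these fits called 144 and 1244. The median of -0.241 became -0.835 with median centring and -0.39 in the deposited table, in the fit of 8 or of 12 arrays. In Cy5 the median of -0.194 became -0.376 with 75th percentile scaling and -0.14 without the 3 arrays. In Cy3 the 14 calls became 5, with a median of 0.281, under 75th percentile scaling, and 1 without the 3 arrays. Over all genes the 1801 Cy3 calls became 467 and 305. Leaving out 1 array gave 0 member calls in the ratio (median -0.317 to -0.227) and 0 in Cy5 (median -0.218 to -0.154). In Cy3 it gave 4 to 12 (median 0.048 to 0.086). Over all genes these fits called 0 to 52 in the ratio, 0 to 21 in Cy5 and 645 to 2309 in Cy3.

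At 40 weeks the 42 calls against control became 29 to 41 with 1 array left out (median -0.382 to -0.268) and 19 without the 2 arrays that differed in Y-linked genes. Over all genes the 8813 calls became 7207 to 9248 and 5058. The median of -0.335 became -0.238 with probes averaged. The 18 calls against 4 weeks became 8 without the filter on dim probes, 3 without those 2 arrays, and 8 to 20 with 1 array left out (median 0.021 to 0.092). Over all genes the 8595 calls became 8688 (of 28146 tested), 4693 and 7089 to 9147. Rpl39l turned to -0.818 with 1 spread and -0.074 with quantile normalization against control, and to -0.187 with 1 spread against 4 weeks. With probes averaged, Rpl11 turned to 1.059, Rpl22l1 to 0.347, Rps12 to 0.991 and Rps18 to 0.032; this average includes the dim probes described above. For the rest the cause was not tested.

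With the replicate number as a block, 0 members were called in the ratio at 4 weeks, 0 in Cy5, 8 in Cy3, 41 at 40 weeks against control and 16 against 4 weeks. Over all genes the block left 0, 0, 1165, 8692 and 8412 called, in the same order. Same-numbered control and 4-week samples had correlations of deviations of 0.32, -0.48, 0.14 and -0.26, and control and 40-week samples 0.20, 0.10, 0.06 and 0.19; not every pair passed 0.1, so the samples are taken to share only a number. Dim signal limits Rpl39l, Rpl3l and the second probes; 4 arrays a group limit every test.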
